A study of Mus musculus with 20 samples.

Results

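Embryonic globins and oncofetal growth genes were followed in the neocortical and hippocampal RNA-seq libraries of mice aged 3 months. The genes were the embryonic globins Hbb-bh1, Hbb-y and Hba-x, the imprinted pair H19 and Igf2, the chromatin protein gene Hmga2, and the RNA-binding protein genes Igf2bp1, Igf2bp2, Igf2bp3 and Lin28b. They were taken by symbol, 10 of the 24421 genes counted, and all 10 were found in each library. They were selected on their counts in 2 of the 20 libraries, cTKO neocortex 5 and cTKO hippocampus 4, where most of them were known to be high. Their levels in these libraries are thus given as a description, and so is any fit that includes these libraries.

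cTKO mice carried floxed alleles of App, Aplp1 and Aplp2 together with Camk2a-Cre, a Cre recombinase under a promoter active in excitatory neurons of the forebrain after birth. Controls, which the labels call wild type, were littermates with the floxed alleles and no Cre, and both were on a mixed C57BL/6J and 129 background and of either sex. There were 5 libraries for each genotype and region. Other cells of the tissue, glia and vessels among them, keep the 3 genes in cTKO mice.

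Embryonic globins are made by the red cells that arise in the yolk sac, and adult-type globins take their place before birth. H19 and Igf2 lie side by side in an imprinted domain, where the maternal copy yields the H19 long noncoding RNA and the paternal copy the growth factor IGF2. Hmga2, Lin28b and the Igf2bp genes are widely active in the embryo, and let-7 microRNAs, which accumulate as tissues mature, are known to repress several of them. In the adult brain, IGF2 is made chiefly by the choroid plexus and the leptomeninges.

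Total counts ranged from 12169474 to 25331954, with 12839121 in cTKO neocortex 5 and 20194692 in cTKO hippocampus 4. Levels are given as CPM, counts scaled to a library size that edgeR's TMM method had adjusted, and the 3 counts taken as the limit of a count of 0 came to between 0.123 and 0.248 CPM. These limits and the intervals below cover counting error only. App changed by -2.10 on the log2 scale in cTKO neocortex and by -1.78 in cTKO hippocampus, and App, Aplp1 and Aplp2 were lower in each cTKO library, these 2 included, than in each control library of the region. In cTKO neocortex 5, Xist, the RNA of the inactive X chromosome, was at 1235 CPM, yet the Y-linked genes Ddx3y, Eif2s3y, Kdm5d and Uty summed to 14.0 CPM from 186 counts. The other 7 libraries with Xist above 100 CPM held 0.0823 to 0.340 CPM of these 4 genes. The 11 other libraries with little Xist held 123 to 162 CPM of them, and cTKO hippocampus 4 held 131 CPM with Xist at 0.615 CPM.

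The promoters of Hbb-y and Hba-x are shown because both genes have binding motifs of erythroid factors close to their start and were high in the same libraries. They are RefSeq sequences of GRCm38, from 250 bases before to 50 bases after the start and written 5′ to 3′ along the gene, and 7 of the 10 genes had an entry. Capitals mark the GATA motifs AGATAA and TGATAA, the CACCC motif bound by Krüppel-like factors and the TATAAA motif, searched on both strands, with no overlap among the matches.
Hbb-y, chr7:103853158-103853457, minus strand: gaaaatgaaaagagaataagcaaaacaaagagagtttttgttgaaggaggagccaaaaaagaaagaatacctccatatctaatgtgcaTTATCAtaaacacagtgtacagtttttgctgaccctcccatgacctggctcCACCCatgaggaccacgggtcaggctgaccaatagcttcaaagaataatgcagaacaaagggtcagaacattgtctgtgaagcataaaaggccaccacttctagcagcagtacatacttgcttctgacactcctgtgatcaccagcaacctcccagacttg
Hba-x, chr11:32276350-32276649, plus strand: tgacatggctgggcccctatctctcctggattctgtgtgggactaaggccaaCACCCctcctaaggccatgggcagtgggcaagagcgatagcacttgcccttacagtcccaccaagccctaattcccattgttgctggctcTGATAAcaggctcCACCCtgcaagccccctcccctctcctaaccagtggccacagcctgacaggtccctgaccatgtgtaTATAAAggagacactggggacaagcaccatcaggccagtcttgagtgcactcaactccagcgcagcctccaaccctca

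In the Hbb-y promoter, TGATAA lay on the reverse strand from position -162 and CACCC from position -111, counted from the start. In the Hba-x promoter, TGATAA lay from position -108, CACCC from -198 and -95, and TATAAA from -28. Of 32851 mouse promoters of the same length, 18.6% held either GATA motif, 57.5% held CACCC, 13.6% held TATAAA and 8.96% held a GATA motif together with CACCC. The last share includes both embryonic globin promoters. The pair was not particular to them: the adult globin promoters of Hba-a1 (TGATAA from -183) and Hbb-bs (AGATAA from -210) also held both motifs. That of Hbb-bt held CACCC and no GATA motif. Lin28b, which was not high in these libraries, held AGATAA from -196 and, on the reverse strand, from -123.

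The let-7 family is shown by let-7a, whose seed, bases 2 to 8, is in capitals. The same seed, GAGGUAG, was found in the 9 mature sequences of let-7 and miR-98 looked up in RefSeq. Below it stand stretches of the longest 3′ UTR of 5 genes (mm10, GENCODE M21), 1 seed match each, with the bases that pair to the seed in capitals. MicroRNAs were not measured in these libraries of polyadenylated RNA.
mmu-let-7a-5p: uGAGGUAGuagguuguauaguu
Hmga2, chr10:120364214-120364242, minus strand: acattcaatttCTACCTCagcatcagttg
Lin28b, chr10:45381012-45381040, minus strand: gggcgggaagtCTACCTCatgcaagcaca
Igf2bp1, chr11:95961768-95961796, minus strand: tgcgaagtaaaCTACCTCaaggtgtgaag
Igf2bp2, chr16:22059463-22059491, minus strand: acaaataaaagCTACCTCaggtgtttttt
Igf2bp3, chr6:49086777-49086805, minus strand: tttttactcaaCTACCTCaggtattcagt

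CTACCTC occurred 4 times each in the 3′ UTRs of Hmga2, Igf2bp1 and Lin28b, which are 3014, 6337 and 4445 bases long, and once each in Igf2bp2 and Igf2bp3. It did not occur in Igf2 or in the 3 embryonic globins. Of 21022 genes with an annotated 3′ UTR, whose median length was 961 bases, 9.02% held at least 1 match and 0.0571% held 4 or more. A match is a description of the sequence and not a measured site, and the shares are not matched on length. Lin28b and Hmga2 hold the same number of matches, and any part of let-7 in their levels was not tested.

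In cTKO neocortex 5 and cTKO hippocampus 4, 8 of the 10 genes were higher than in each of the other 18 libraries. Among all 17725 genes with 10 or more counts over the 20 libraries, 5.22% did so, a share that is given as background only, since the genes were chosen for this pattern. The 8 genes were the 3 embryonic globins, H19, Hmga2, Igf2bp1, Igf2bp2 and Igf2bp3. Igf2 was higher than in the other libraries of its region in cTKO neocortex 5, as 18.6% of all genes were, but not in cTKO hippocampus 4, where 14.8% of all genes were, and Lin28b was within the range of its region in both. The grouping of Lin28b with the other genes is thus not borne out by its levels. Of the 8 genes, Igf2bp2 came nearest to the threshold but was well above it, with cTKO hippocampus 4 at 5.75 times the highest of the other 18 libraries. For Igf2, cTKO neocortex 5 stood at 0.994 times and cTKO hippocampus 4 at 0.608 times the highest of these libraries.

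**Figure D1:**
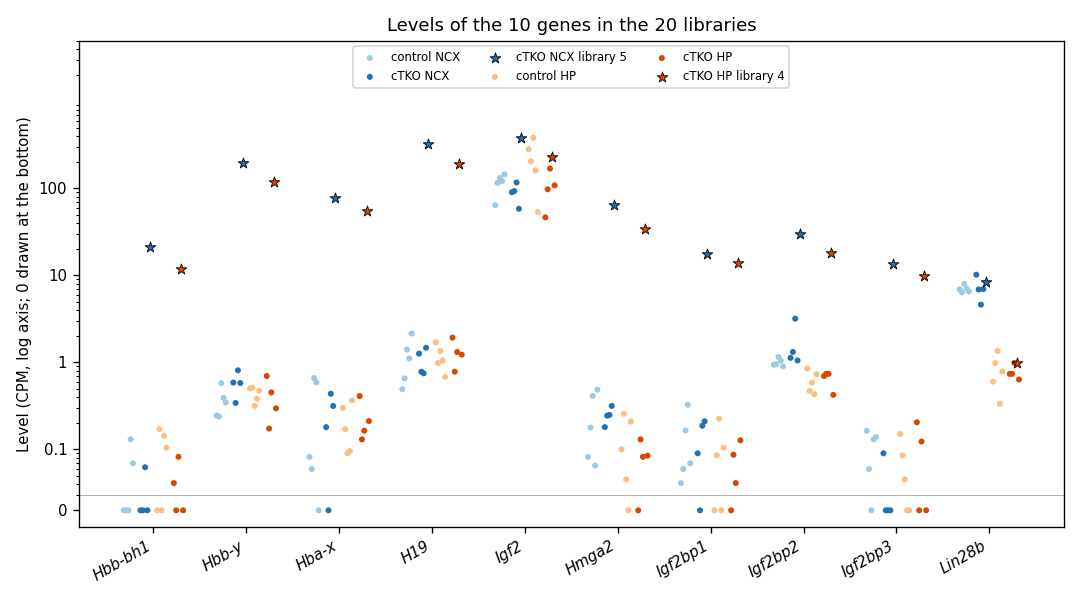
Level of each of the 10 genes in each of the 20 libraries, in CPM on a log axis with 0 drawn at the bottom. Points are single libraries coloured by genotype and region, and stars are cTKO neocortex 5 and cTKO hippocampus 4, which stand above all points for 8 genes and among them for Lin28b.

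Hbb-y encodes the embryonic beta-like chain and lies on chromosome 7 from 103851754 to 103853207 (GRCm38), in the cluster of beta-like globin genes. It had 2600 counts in cTKO neocortex 5 and 2528 counts in cTKO hippocampus 4. The control neocortex held 6, 4, 7, 6 and 5 counts in libraries 1 to 5, and the other cTKO neocortex libraries, 1 to 4, held 13, 7, 13 and 11. Control hippocampus held 10, 12, 7, 8 and 9 counts, and cTKO hippocampus 1, 2, 3 and 5 held 17, 4, 11 and 7. Hbb-y was thus at a low level in each of the 18 libraries, and their groups overlapped. The levels of 195 CPM (95% Poisson interval 188 to 203) and 119.6 CPM (115 to 124) were 449-fold (95% binomial interval 382 to 531) and 275-fold (234 to 325) those of the other 18 libraries pooled.

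Hba-x encodes the zeta chain, the embryonic alpha-like partner, and lies on chromosome 11 from 32276600 to 32278116. Its counts were 1043 and 1163 in the 2 libraries, or 78.4 and 55.0 CPM. In the other 9 neocortex libraries the lowest, median and highest counts were 0, 4 and 9, and in the other 9 hippocampus libraries 2, 4 and 10. Hbb-bh1, a second embryonic beta-like gene that lies 8591 bases from Hbb-y, had 282 and 252 counts, or 21.2 and 11.9 CPM. Its counts in the other 18 libraries lay between 0 and 4, and 10 of these libraries had none, which allows levels of up to 3 counts in each. Alpha-like and beta-like embryonic chains were therefore both present in the 2 libraries at far more than the levels elsewhere.

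The proportions of the 3 embryonic globins were close in the 2 libraries and in the pool of the other 18. Hbb-y made up 66.2% (95% exact binomial interval 64.7 to 67.7) of their 3925 counts in cTKO neocortex 5 and 64.1% (62.6 to 65.6) of 3943 counts in cTKO hippocampus 4. Pooled over the other 18 libraries, it was 62.1% (55.8 to 68.1) of 253 counts. Hba-x took 26.6% (25.2 to 28.0), 29.5% (28.1 to 30.9) and 31.6% (25.9 to 37.7), and Hbb-bh1 took 7.18%, 6.39% and 6.32%. For Hba-x the intervals of cTKO neocortex 5 and cTKO hippocampus 4 did not overlap, and the interval of the 18 libraries covered the values of both. Whether the few counts in the 18 libraries arose in their own tissue was not tested.

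Adult globins could not be set beside them. Hba-a1, Hba-a2, Hbb-bt, Hbb-bs, Hbb-b1 and Hbb-b2 were listed at 0 in all 20 libraries, as was the beta-like gene Hbb-bh2, though brain tissue holds blood. Of the 100-base windows in their transcripts, the length of a read, 63.3% in Hba-a1, 79.5% in Hba-a2, 54.8% in Hbb-bt and 49.7% in Hbb-bs also occurred in another gene, whereas none of the windows of Hbb-bh1, Hbb-y and Hba-x did. The other windows of Hba-a1, Hba-a2, Hbb-bt and Hbb-bs were not shared. Hbb-bh2 had no shared window and was also listed at 0, and the cause of the zeros was not tested. Adult globin levels are thus not read from these counts, and no ratio of embryonic to adult globin is given.

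H19, a long noncoding RNA that is abundant in the embryo and holds the precursor of miR-675, had the most counts of the 8 genes. It lies on chromosome 7 from 142575530 to 142578146. It had 4288 counts in cTKO neocortex 5 and 4078 in cTKO hippocampus 4, or 322 and 193 CPM. Control neocortex libraries 1 to 5 held 12, 11, 17, 17 and 31 counts, and cTKO neocortex libraries 1 to 4 held 28, 16, 12 and 28. The hippocampus of controls held 34, 23, 30, 22 and 13 counts, and that of the other cTKO mice 47, 18, 32 and 29. The 18 libraries held 0.492 to 2.15 CPM of H19, and the 2 libraries were 277-fold (251 to 307) and 166-fold (149.96 to 184) above their pooled level.

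Igf2, the growth factor on the other side of the imprinted domain, behaved differently from H19, 72621 bases away. It lies on chromosome 7 from 142650768 to 142666816. cTKO neocortex 5 held 5043 counts, or 379 CPM, and the other 9 neocortex libraries 58.4 to 145 CPM, with a median of 116 CPM. It was 3.81-fold (3.69 to 3.94) the pooled level of these 9 libraries. cTKO hippocampus 4 held 4900 counts, or 232 CPM, within the 46.5 to 382 CPM of the other 9 hippocampus libraries, and 1.40-fold (1.36 to 1.44) their pooled level. Of the 100-base windows of Igf2 transcripts, 59.3% also belonged to the overlapping genes Gm49394 or Igf2os, so part of its reads could have been left uncounted.

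Hmga2 encodes a small protein that binds AT-rich DNA and is active in growing embryonic tissue. It lies on chromosome 10 from 120361268 to 120476469 and had 858 and 732 counts in the 2 libraries, or 64.5 and 34.6 CPM. The other 9 neocortex libraries held 1 to 7 counts with a median of 4, and the other 9 hippocampus libraries 0 to 6 with a median of 2. The Igf2bp proteins bind Igf2 mRNA, among others, and set its stability and translation. Igf2bp1 (chromosome 11, 95957163 to 96005944) had 232 and 294 counts and Igf2bp3 (chromosome 6, 49085218 to 49215469) had 182 and 211, against 0 to 5 counts for either gene in the other 18 libraries. Igf2bp2 (chromosome 16, 22059009 to 22163299) had 402 and 387 counts, or 30.2 and 18.3 CPM, above a higher baseline of 13 to 51 counts in the other neocortex libraries and 9 to 18 in the other hippocampus libraries. Of the windows of Igf2bp3, 17.5% were shared with the overlapping gene Malsu1.

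Lin28b, which encodes an RNA-binding protein that blocks the maturation of let-7, followed region and not these libraries. It lies on chromosome 10 from 45376617 to 45486314. Control neocortex 1 to 5 held 6.93, 6.38, 8.02, 7.06 and 6.53 CPM, and cTKO neocortex 1 to 5 held 10.2, 6.90, 4.62, 6.96 and 8.34 CPM. Control hippocampus held 0.603, 0.985, 1.36, 0.336 and 0.786 CPM, and cTKO hippocampus 0.740, 0.740, 0.988, 0.994 and 0.637 CPM. The lowest neocortex library was above the highest hippocampus library in both genotypes. cTKO neocortex 5 was at 1.17-fold (0.951 to 1.42) and cTKO hippocampus 4 at 1.24-fold (0.746 to 1.96) the pooled level of their region, intervals that include 1. Lin28a, its close relative, had 0 counts in both libraries.

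Between cTKO neocortex 5 and cTKO hippocampus 4, the 8 genes were in similar proportions. Their CPM ratios, neocortex over hippocampus, had a median of 1.64 and ranged from 1.25 (1.05 to 1.49) for Igf2bp1 to 1.86 (1.68 to 2.06) for Hmga2. Hbb-y at 1.63 (1.55 to 1.73), Igf2bp2 at 1.65 (1.43 to 1.90), H19 at 1.67 (1.60 to 1.74) and Hbb-bh1 at 1.78 (1.49 to 2.12) had overlapping intervals. Hba-x at 1.42 (1.31 to 1.55) and Igf2bp3 at 1.37 (1.12 to 1.68) were lower, and the interval of Hba-x did not overlap those of H19 and Hmga2. The interval of Igf2bp1 did not overlap those of Hbb-y, H19 and Hmga2 either, and it ended at 1.4939, just below the 1.4943 where that of Hbb-bh1 began. That of Igf2bp3 lay just below that of Hmga2. The median was 1.65 after the median level of the other libraries of the region was taken off. Over all 8 genes, 9887 and 9645 counts were found, and H19 took 43.4% and 42.3% of their summed CPM, Hbb-y 26.3% and 26.2%.

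**Figure D2:**
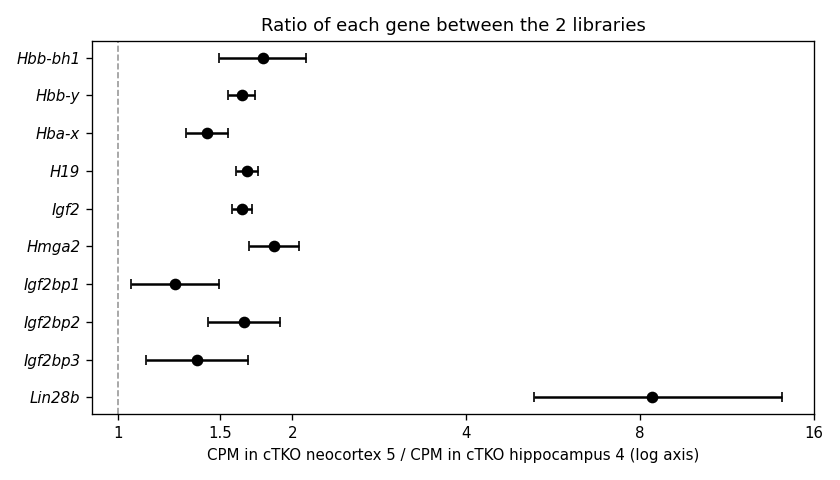
CPM in cTKO neocortex 5 divided by CPM in cTKO hippocampus 4 for each gene, on a log axis, with exact binomial 95% intervals and a dashed line at 1. The 8 genes lie between 1.25 and 1.86, Igf2 lies at 1.63 before its baseline is taken off, and Lin28b, which differs between the regions in all libraries, lies at 8.40.

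The ratio of Igf2 was 1.63 as measured and 3.71 once the median of the other libraries was subtracted, because its baseline is high. The Lin28b ratio of 8.40 (5.23 to 14.1) had an interval that overlapped that of no other gene of the list. Other genes gave ratios of similar size: 52 genes outside the list that were at least 10-fold above the pooled level of their region in both libraries, with 50 or more counts in each, had a median ratio of 1.55 and quartiles of 1.33 and 1.78. At least 10-fold levels in both libraries were found for 112 genes, 0.632% of the 17725.

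Per kilobase of exon, the genes stood in the same order in the 2 libraries. Hbb-y was highest, at 309 CPM per kilobase in cTKO neocortex 5 and 189 in cTKO hippocampus 4, before H19 at 131 and 78.4, Hba-x at 83.6 and 58.7, Igf2 at 66.2 and 40.5, and Hbb-bh1 at 34.6 and 19.5. Hmga2, at 9.52 and 5.12, and Igf2bp2, at 4.08 and 2.47, followed. Igf2bp1 at 1.80 and 1.44 and Igf2bp3 at 1.68 and 1.22 were next, and their counting intervals overlapped in both libraries. Lin28b was lowest, at 0.920 and 0.110. The embryonic beta-like Hbb-y was thus above its alpha-like partner Hba-x in both libraries on this scale, and Hbb-bh1 below it.

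Library numbers did not link the 2 libraries. cTKO hippocampus 5 held 7 counts of Hbb-y and 29 of H19, and cTKO neocortex 4 held 11 and 28, which are levels of the other 18 libraries. Xist lay on the same side of 100 CPM in same-numbered libraries of a genotype for all 10 numbers, though cTKO neocortex 5 held 14.0 CPM of the 4 Y-linked genes against 0.340 CPM in cTKO hippocampus 5. cTKO neocortex 5 and cTKO hippocampus 4 lay on different sides. Over 13791 genes, cTKO neocortex 1 to 3 deviated most like the hippocampus library of their number (r = 0.302 to 0.369). cTKO neocortex 4 and 5 were best matched by cTKO hippocampus 2 and 4, with r of -0.0435 and -0.0798 to their own number. Genes raised in both cTKO neocortex 5 and cTKO hippocampus 4 were not left out of the 13791. The match of these libraries is thus a description, and nothing on their origin is read from it.

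Related genes were examined as lists. A gene was counted when it was above each of the other 9 libraries of the region in both libraries, which 7.92% of the 17725 genes were. Of the erythroid cell genes, 9 of 17 were counted. Slc4a1, the anion exchanger of the red cell membrane, was at 10.7 CPM in cTKO neocortex 5 against at most 0.158 CPM in the other neocortex libraries, and at 4.31 CPM in cTKO hippocampus 4 against at most 0.367 CPM. Alas2, the erythroid enzyme of heme synthesis, was at 4.66 and 2.46 CPM, against at most 0.750 and 1.10 CPM. The erythroid genes with most reads, Sptb, Car2, Tfrc and Ank1, are also active in brain and were within or below the range of the other libraries. The median log2 difference of the list from the other 9 libraries was 0.78 and 0.99, against -0.0011 and -0.019 over all genes.

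Of the factors that act on globin genes, 3 of 11 were counted, namely Gata1, Tal1 and Nfe2. Gata1, the GATA factor of red cell precursors, had 5 counts in each of the 2 libraries and 0 counts in the other 18. Tal1 was at 3.76 and 2.08 CPM, against at most 2.79 and 1.97 CPM. Zbtb7a, Bcl11a, Ldb1 and Zfpm1, which had most reads, were not counted, and Bcl11a, a repressor of embryonic globins that cortical neurons also use, was at 137 and 133 CPM against medians of 146 and 140.5 CPM.

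In the IGF axis, 3 of 16 genes were counted. They were Igf1, Igf2r and Igfbp5. Igf2r, the receptor that clears IGF2, was at 98.2 and 79.7 CPM, against at most 53.9 and 52.8 CPM in the other libraries of the region. Igfbp5, a binding protein of IGFs, was at 405 and 538 CPM, against at most 268 and 313 CPM. Igf1r and Igfbp4 were not counted. The summed level of the list was 1025 and 1040.2 CPM, outside the 766 to 837 CPM and 591 to 782 CPM of the other libraries.

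Among imprinted growth genes, 4 of 17 were counted. Grb10, an adaptor that restrains growth, was at 227 and 134 CPM against medians of 57.7 and 34.7 CPM. Mest was at 129 and 73.8 CPM against 41.1 and 29.1 CPM, and Cdkn1c, an inhibitor of the cell cycle, at 40.4 and 27.2 CPM against 8.06 and 5.62 CPM. Zim1 was the other gene counted. The most abundant genes of the list, Meg3, Rian, Peg3 and Nnat, were not counted in both. Ndn, a neuronal gene of the list, was at 59.8 and 84.5 CPM against medians of 141 and 184 CPM.

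Of the Lin28 and let-7 pathway, 8 of 19 genes were counted. They were Trim71, Arid3a, Myc, Mycn, Zcchc11, Dicer1, Plagl2 and Fign. Mycn was at 14.4 and 10.8 CPM against at most 9.48 and 8.74 CPM. Dicer1, which cuts microRNA precursors, was at 89.6 and 68.0 CPM against at most 80.4 and 63.7 CPM. The distances of Mycn and Dicer1 were thus small beside those of the 8 genes, and values of the other genes counted are not given. The list summed to 836 and 713 CPM, outside the 662 to 754 CPM and 582 to 706 CPM of the other libraries.

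**Figure D3:**
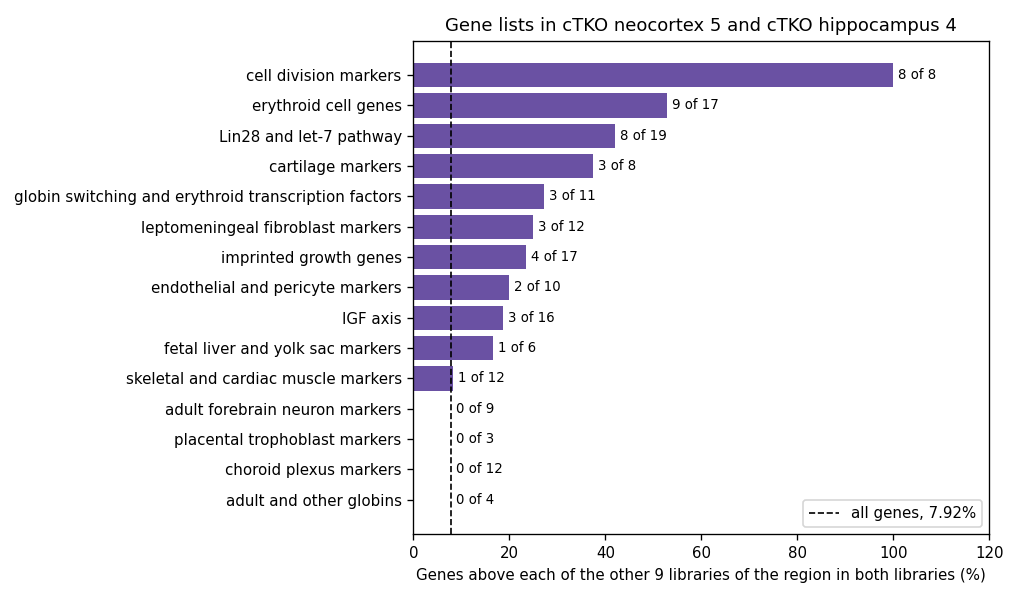
Share of each list's genes, in percent, that were above each of the other 9 libraries of the region in both cTKO neocortex 5 and cTKO hippocampus 4, with the numbers beside the bars and the share of all genes, 7.92%, as a dashed line. All 8 cell division markers and 9 of 17 erythroid genes are counted, and 0 of 9 forebrain neuron markers.

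Markers of other cells moved with these genes, and their part in the levels was not tested. All 8 markers of dividing cells were counted, and their sum was 158 and 123 CPM, against 6.40 to 12.1 CPM and 7.08 to 10.8 CPM. Top2a was at 58.7 and 44.9 CPM, Mki67 at 36.9 and 30.6 CPM, Foxm1 at 13.5 and 11.9 CPM and Cdk1 at 11.7 and 9.42 CPM. Of the leptomeningeal fibroblast markers, 3 of 12 were counted, the collagens Col1a1, Col1a2 and Col3a1. Col3a1 was at 108 and 73.3 CPM against at most 12.7 and 12.8 CPM. Dcn, a marker of adult fibroblasts, was at 27.3 CPM, within the range of the other neocortex libraries, and at 37.6 CPM, below the 70.5 CPM of the lowest other hippocampus library. The list summed to 392 CPM in cTKO neocortex 5, where the others held 94.1 to 163 CPM, and to 314 CPM in cTKO hippocampus 4, where the others held 128 to 366 CPM. Of the cartilage markers, 3 of 8 were counted, with Col2a1 at 15.3 and 10.1 CPM against at most 1.56 and 1.33 CPM. The list summed to 93.8 and 96.8 CPM, against 61.1 to 81.1 and 60.5 to 85.7 CPM.

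The summed markers of several other tissues were within range, except muscle markers in cTKO hippocampus 4, which were below it. Of the fetal liver and yolk sac markers, 1 of 6 was counted, Afp, with 5 counts in each library, while Alb had 1 and 0 counts and Ahsg and Serpina1a had 0 in both. The sum of that list, 4.89 and 3.60 CPM, was within 4.76 to 5.75 and 2.35 to 4.77 CPM. Of 10 placental trophoblast markers, 6 were at 0 in all 20 libraries, Prl3b1, Prl3d1, Tpbpa, Gcm1, Hand1 and Ctsq, and 0 of 3 with enough counts were counted. Muscle markers gave 1 of 12, Actc1, with a summed level of 48.1 CPM within 38.0 to 55.0 CPM and of 14.9 CPM below 19.3 to 25.6 CPM. Endothelial and pericyte markers gave 2 of 10, Cdh5 and Pdgfrb, and their sums of 365 and 345 CPM were within 342 to 382 and 239 to 364 CPM. Choroid plexus markers gave 0 of 12, with sums of 18.9 CPM within 12.8 to 21.8 and 211 CPM within 85.9 to 2862 CPM.

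The neuronal identity of the tissue was plain in both libraries. The 9 markers of adult forebrain neurons, Camk2a, Snap25, Syt1 and Slc17a7 among them, summed to 13563 CPM in cTKO neocortex 5, within the 13237 to 15153 CPM of the other neocortex libraries. In cTKO hippocampus 4 they summed to 12860 CPM, below the 14519 to 16480 CPM of the others. In bulk tissue, fewer cells of a type and less RNA per cell cannot be told apart. None of the 9 markers was counted as above the other libraries in both.

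The genes most like the embryonic globins were found by Pearson's r, over the 20 libraries, with the log2 of their summed CPM. They were Gata4 (r = 0.97), Foxa2, Aurkb, Hsd3b6, Upk3b, Cldn4, Hoxc5, Gata1, Hoxb5os and Hoxa2 (r = 0.96). The value rests on cTKO neocortex 5 and cTKO hippocampus 4, and the libraries share depth and composition. Gata4, a GATA factor of endoderm and heart, was at 3.23 and 2.22 CPM and at most 0.0827 CPM elsewhere. Upk3b was at 5.26 and 2.27 CPM, and Aurkb, a kinase of dividing cells, at 8.57 and 6.29 CPM. Hsd3b6 was at 1.43 and 1.23 CPM and 0 elsewhere.

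The adult baseline was taken from the 18 other libraries, whose differences among themselves the choice of genes did not use. Here 4 genes passed the filter of a CPM above 1 in at least 5 libraries in the neocortex and 2 did so in the hippocampus, and the rest were below the filter. In the neocortex without cTKO neocortex 5, 0 of these 4 genes differed between genotypes at an FDR under 0.05 (edgeR's quasi-likelihood test), against 0.966% of the 13763 genes tested, and 0 had an unadjusted p under 0.05. DESeq2 and edgeR's exact test also called 0. H19 averaged 1.16 CPM in controls and 1.07 CPM in the 4 cTKO libraries, with a log2 fold change of -0.037 and a standard error of 0.41. Lin28b had a log2 fold change of 0.058 (standard error 0.18) and Igf2 one of -0.36 (standard error 0.21).

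In that comparison Igf2bp2 had a log2 difference of 0.72 with a standard error of 0.34 (FDR 0.426 from edgeR). Controls held 0.944, 0.954, 1.16, 1.05 and 0.903 CPM, and cTKO neocortex 1 to 4 held 1.13, 1.32, 3.19 and 1.05 CPM. The value of 3.19 CPM in library 3 stood apart, and without it the log2 fold change was 0.24. In cTKO neocortex 3, Igf2bp1 had 3 counts, Igf2bp3 had 0 and Hmga2 had 4, and Hbb-y, at 13 counts or 0.812 CPM, was at its highest among the 18 libraries.

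In the hippocampus without cTKO hippocampus 4, 0 of 2 genes were called by edgeR, DESeq2 or the exact test, against 0.484% of the 13643 tested, and 1 had an unadjusted p under 0.05. That gene was Igf2. Controls held 283, 205, 382, 161 and 53.6 CPM, and cTKO hippocampus 1, 2, 3 and 5 held 46.5, 97.8, 169 and 108 CPM. The groups overlapped widely, and cTKO minus control was -1.05 on the log2 scale (standard error 0.47, FDR 0.412 from edgeR). H19 had a log2 fold change of 0.18 (standard error 0.31). When no filter was used, all 10 genes could be tested, and 0 were called in either region.

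With all 10 libraries of a region, 0 of 4 genes in the neocortex and 0 of 2 in the hippocampus were called, against backgrounds of 0.188% and 0.489% of the genes tested. These values use the 2 libraries and are a description. H19 had log2 fold changes of 5.89 (standard error 1.80, FDR 0.244) and 5.10 (standard error 1.60, FDR 0.224), each set by 1 library, without which it was -0.037 and 0.18. At an unadjusted p under 0.05 there were 2 genes and 1 gene. DESeq2 called 0 in either region, but it gave no p for H19 in either region or for Igf2bp2 in the neocortex, so its count says nothing on these. The exact test of edgeR called H19 in both, at FDRs of 0.0259 and 0.0230. It called 163 of 13843 genes in the neocortex and 257 of 13702 in the hippocampus. H19 was chosen for its counts in the 2 libraries, so nothing is read from these calls.

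Controls were compared between regions to describe the adult brain. Of 3 genes that passed the filter, 1 was called with the library number as a block, Lin28b. In the main fit, which did not pair the libraries, 2 were called, against 59.1% of the 13832 genes tested, so a call is common in this comparison. Lin28b was higher in the neocortex, at 6.98 CPM against 0.813 CPM in the hippocampus, with a log2 difference, hippocampus minus neocortex, of -3.08 (standard error 0.24, FDR 3.82e-08 from edgeR), and the groups did not overlap. It passed the filter through the neocortex alone. H19 did not pass, at a log2 fold change of 0.055 (standard error 0.37). Igf2bp2, which missed the filter, held 0.432 to 0.854 CPM in control hippocampus and 0.903 to 1.16 CPM in control neocortex. With edgeR's own filter it was tested, and its log2 fold change was -0.71 (FDR 0.0302), in a fit that called 8352 of 14588 genes. Without a filter its log2 fold change was -0.68, and it was not called (FDR 0.0553 from edgeR).

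In the main fit, without pairing, Igf2 was called higher in control hippocampus. It was at 217 ± 124 CPM (SD, n = 5) against 116 ± 30.8 CPM (SD, n = 5) in control neocortex. The log2 difference was 0.91 (standard error 0.36, FDR 0.0408 from edgeR). With the library number as a block, which pairs the control libraries, the log2 fold change was 0.74 and the call was lost (FDR 0.0748). The call was also lost with DESeq2 (FDR 0.0883) and when control hippocampus 1, 2 or 3 or control neocortex 1, 2, 3 or 4 was left out, with log2 differences of 0.60 to 0.96 and FDRs of 0.0564 to 0.141. RNA of the regions was extracted with different kits, so kit and region cannot be told apart.

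**Figure D4:**
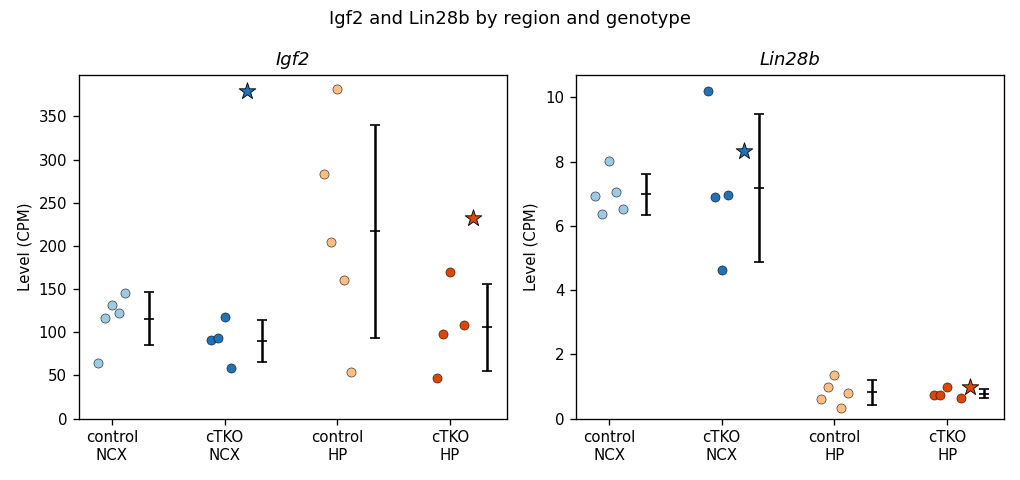
Igf2 and Lin28b in CPM on linear axes by region and genotype, 1 point for each library, stars for cTKO neocortex 5 and cTKO hippocampus 4, and the mean with the SD of the other libraries as bars. Lin28b does not overlap between regions, whereas Igf2 spreads from 46.5 to 382 CPM in the hippocampus without its star.

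Markers of choroid plexus and of leptomeningeal fibroblasts followed Igf2 in some hippocampal libraries and not in others, and their part in it was not tested. Ttr, the thyroid hormone carrier that the choroid plexus secretes, was at 342, 426, 2453, 211 and 38.4 CPM in control hippocampus 1 to 5 and at 73.1, 109, 96.3, 139 and 529 CPM in cTKO hippocampus 1 to 5. In both sets of values control hippocampus 3 was highest among controls and control hippocampus 5 lowest. cTKO hippocampus 5 had the second highest Ttr of the region with 108 CPM of Igf2. The leptomeningeal fibroblast markers summed to 366, 239, 263, 198 and 142 CPM in control hippocampus 1 to 5 and to 128, 224, 234, 314 and 205 CPM in cTKO hippocampus 1 to 5. Control hippocampus 5 was lowest among controls in these sums as in Igf2, and among cTKO libraries number 1 was lowest and number 4 highest in both. Number 4 is a selected library, and of the 12 markers only the collagens Col1a1, Col1a2 and Col3a1 were above range there. Dcn was below range in it, so its sum is not read as a level of leptomeninges. Control hippocampus 3, highest in Igf2, had a sum of 263 CPM, below the 366 CPM of control hippocampus 1. In the neocortex Ttr was at 2.37 to 8.60 CPM while Igf2 was at 58.4 to 379 CPM, and cTKO neocortex 5 was at 6.39 CPM of Ttr.

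**Figure D5:**
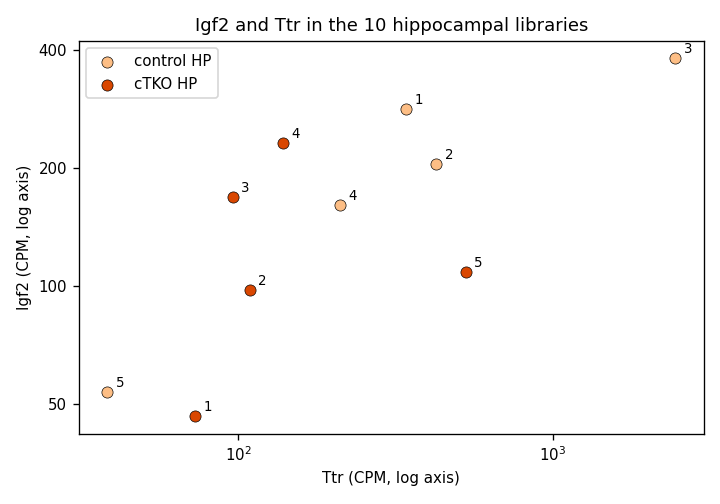
Igf2 against Ttr in the 10 hippocampal libraries, both in CPM on log axes, with the library number beside each point and the genotype by colour. Control hippocampus 3 is highest for both genes and control hippocampus 5 is lowest for Ttr and low for Igf2.

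Within genotype and region, over the 18 libraries, the genes whose log2 CPM was most like that of Igf2 were Bmp6 (r = 0.93), Dab2 (r = 0.93), Tcn2 (r = 0.93), Fgl2 (r = 0.92) and Ptgds (r = 0.92). Ptgds, the prostaglandin D synthase of the leptomeninges and choroid plexus, reached 1507 CPM in these libraries and was at 586 CPM in cTKO neocortex 5 and 498 CPM in cTKO hippocampus 4. For H19 they were Jph2 (r = 0.81), Arl13b, Ano6, Cdk2 and Mylk (r = 0.75), and for Lin28b Cdc42bpg (r = 0.82), Etfdh, A730020E08Rik, Trim12c and Chpt1 (r = 0.74). These values come from 18 libraries that share depth and sex differences, and H19 rests on few counts.

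The effect of genotype was compared between regions without the 2 libraries. Of 4 genes tested, 0 differed at an FDR under 0.05 in the edgeR quasi-likelihood test, against 0.0779% of 14116 genes, and 0 had an unadjusted p under 0.05. DESeq2 also called 0 of them, and with the library number as a block 31 of all genes and 0 of the 4 were called. The difference of the log2 fold changes, hippocampus minus neocortex, was -0.68 (standard error 0.56) for Igf2, -0.63 (0.47) for Igf2bp2, 0.23 (0.53) for H19 and -0.13 (0.39) for Lin28b.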

How the data were processed

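Polyadenylated RNA of neocortex and hippocampus was sequenced by the authors in single-end reads of 100 bases, mapped to mm10 with STAR 2.5.4a and counted on genes with HTSeq. The deposited values are raw counts by gene symbol, 1 table for each library. The annotation and strand setting are not given in the sources used here, so reads of overlapping genes could have gone to either gene or to neither. All 20 libraries were mapped to a genotype, region and number by their titles.

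Genes above 1 CPM in 5 or more libraries of a fit were tested with edgeR 4.0.16 (TMM, quasi-likelihood test, Benjamini-Hochberg FDR over all genes tested, threshold 0.05) in R 4.3.3, and procedures were tested on simulated data. Log2 CPM used a prior count of 2. The genes, lists and tests were chosen with earlier results of these data known. From each list, up to 4 genes with the most reads and the genes counted were named, with the other examples named after their values were seen. The result of 1 list is not reported here. Intervals are exact 95% Poisson and binomial intervals. Nothing in the labels says more about how replicates were obtained than that they are separate samples, so p-values measure the spread between them.

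Same-numbered control libraries of the 2 regions deviated together (r = 0.111 to 0.313, each best matched by its own number), and the numbers were taken to pair them. The main tests did not use this pairing, which entered only with the number as a block. Alternatives were DESeq2 1.42.0, its size factors, edgeR's exact test, filterByExpr, no filter, the number as a block, each library left out and, chosen after seeing the data, sex as a term.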

Additional observations from a re-analysis of the deposited data

Results flagged for a closer look

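In groups of 5 libraries, 1 library stood far from the others for 17 of the 40 gene and group pairs, by Dixon's ratio of its gap to the nearest library over the range of the group, where chance gives about 1 in 20. All were in cTKO groups, and these are the levels by which the genes were chosen, given as values only.

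In cTKO neocortex, library 5 was the highest for 9 genes. Its ratio was 0.997 for Hbb-bh1, 0.998 for Hbb-y, 0.994 for Hba-x, 0.998 for H19, 0.998 for Hmga2, 0.988 for Igf2bp1, 0.927 for Igf2bp2, 0.993 for Igf2bp3 and 0.816 for Igf2.

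In cTKO hippocampus, library 4 was the highest for 8 genes. Its ratio was 0.993 for Hbb-bh1, 0.996 for Hbb-y, 0.995 for Hba-x, 0.994 for H19, 0.996 for Hmga2, 0.991 for Igf2bp1, 0.982 for Igf2bp2 and 0.979 for Igf2bp3. Lin28b had no such library in the 4 groups.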

How the results depend on the processing

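The 8 genes were above the other 18 libraries in both libraries under each of the 3 scalings, and their median ratio stayed within its spread. In the comparisons of genotype with all libraries, edgeR's exact test called 1 of the genes, H19, in each region. This is a description, since H19 was chosen by its counts in 2 of these libraries. In the comparison of regions in controls, 1 gene and not 2 was called with DESeq2, with the replicate block and with sex as a term (Igf2 at FDR 0.0684), and 1 to 2 when single libraries were left out. With filterByExpr, 4 of the genes were tested and 3 called, Igf2bp2 among them. The call of Lin28b held in all of these fits. Signs turned for values that passed no test. With the block, which pairs libraries by number, H19 was at 0.33 in the neocortex without library 5, and the interaction of Lin28b at 0.034. With single libraries left out, the neocortex values ran from -0.037 to 6.25 for H19, -0.36 to 0.56 for Igf2 and -0.051 to 0.23 for Lin28b with all libraries, and from -0.28 to 0.092 for H19 and -0.17 to 0.21 for Lin28b without library 5. Of these fits without library 5, H19 passed the filter in 4 and Lin28b in 9. The values ran from -0.063 to 0.36 for H19 in the hippocampus without library 4, from -0.19 to 0.41 for H19 between regions, and for the interaction from -0.12 to 0.48 for H19 and -0.33 to 0.13 for Lin28b. The cause was not tested. Over all genes the counts of calls changed with the fit: 26 became 7 to 221 in the neocortex and 67 became 15 to 331 in the hippocampus, 133 became 54 to 402 and 66 became 24 to 337 without the 2 libraries, and 11 became 3 to 41 for the interaction. Genotypes share only a number: correlations of same-numbered libraries ran from -0.146 to 0.219, not every library was best matched by its own number, and the block gave 12, 58, 73 and 24 calls in those 4 comparisons. It changed no other call of the 10 genes. Depth limits Hbb-bh1, Hba-x, Hmga2, Igf2bp1 and Igf2bp3 in the 18 libraries, where they missed the filter and were tested only without it.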
